A study of Homo sapiens with 30 samples.

Results

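Transcript levels in A375 cells 8 h after addition of 650 nM MLN4924 were compared with those in cells given 0.065% DMSO, the vehicle, for the same time. A375 is an established human melanoma line with an activating BRAF mutation, grown in serum-containing medium. The comparison takes 6 of the 30 arrays of the series, 3 with MLN4924 and 3 with DMSO at 8 h, picked by treatment and time in their titles. The other 24 arrays hold the same treatments at 1, 2, 4 and 24 h, again 3 per group. All 19775 genes with a usable probe set on the HG-U133 Plus 2.0 array were tested. The labels do not say that the 3 arrays of a group came from separate cultures, so the p-values rest on a spread that could be technical only.

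MLN4924 (pevonedistat) blocks the NEDD8-activating enzyme, the NAE1-UBA3 pair that loads the small protein NEDD8 for transfer to cullins. Cullins are the scaffolds of the largest group of ubiquitin ligases: a RING protein at one end recruits ubiquitin, and an exchangeable receptor at the other end (F-box, BTB, DCAF or SOCS-box proteins) picks the substrate. Without NEDD8 these ligases work poorly, and short-lived substrates such as the antioxidant factor NRF2, the replication licensing factor CDT1, cyclin E, MYC and the inhibitor of NF-kB are known to build up. Such build-up is of protein and cannot be read from an array. The values below are RNA levels, and a change of a gene's RNA is a change in the cell population as a whole, in which a change in RNA per cell and a change in the mix of cells cannot be told apart.

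Levels are given as normalized signal, on the linear scale of the deposited table after quantile normalization, in which the median over genes and arrays was 36.58. Changes are differences between the group means of log2(signal + 32), MLN4924 minus DMSO, with n = 3 arrays per group, and the added 32 shrinks the change of dim genes. A gene was called, and is said to have risen or fallen, at a Benjamini-Hochberg adjusted p under 0.05 in limma over all 19775 genes. A gene named as risen or fallen was also called under each of the 16 alternative settings of the processing in which it was measured, unless a lost call is stated beside it, and "every setting" has this sense below; 50 of the 205 called genes named were measured under 15 of them. The genes named are not typical in this, since the choice favoured such genes: of all 3002 called genes 930 (31%) were called under every setting. A gene's value is that of its brightest probe set, and of the 2029 called genes with another probe set 675 had another called the same way and 21 had one called the opposite way. Of the 132 such genes named here 92 had another called the same way, none the opposite way, and 40, TXNRD1, CCND1, CCNE1, SOX10, S100B and AXIN2 among them, had no other called. The before-normalization median signal was 39.4 to 44 on the DMSO arrays and 33.6 to 37.6 on the MLN4924 arrays, a gap in group means that an exact permutation test could not take below p = 0.1. The 3' to 5' signal ratio of ACTB, a sign of RNA quality, was 1.23 ± 0.08 (SD, n = 3) with DMSO and 1.36 ± 0.08 with MLN4924 (exact permutation test, p = 0.2), and that of GAPDH was 0.897 and 0.898. The part of the median signal in the results was not tested beyond the other scalings given below. The melanoma label was held against its markers: SOX10, S100B, MIA and MITF were well above the array median with DMSO, while the pigment genes PMEL, MLANA, TYR and TYRP1 lay between 15.4 and 44.9, near it.

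At 8 h, 3002 of 19775 genes were called (15.2%), of which 1655 rose (8.37%) and 1347 fell (6.81%). Counts of called list members below are to be read against these shares. The shares take in dim genes, and a list of 13 measured housekeeping genes had 38.5% called, 23.1% higher and 15.4% lower. A list share above 15.2% alone therefore does not set a list apart from such genes. Most changes were small: the median was 0.43 among the genes that rose and -0.43 among those that fell, and 164 genes (0.829%) were called with a change of at least 2-fold, 84 up and 80 down. At least 4-fold changes were found for 8 genes up and 5 down. The 3 MLN4924 arrays lay all above or all below the 3 DMSO arrays for 2912 of the 3002, against 5539 of all genes (28%). This follows largely from the call, which used the same arrays. The MLN4924 arrays lay beyond the range of all 15 DMSO arrays of the series for 1559 of the 3002 (51.9%, against 9.19% of all genes). For the genes with changes of at least 2-fold this was 151 of 164. These counts are also tied to the call, since they use the same 6 arrays of 8 h, and are no independent evidence. The balance of the directions depended on the scaling: risen genes were 55.1% of the calls here, 49.7% with the signals as deposited and 77.7% with median centring of each array (2796 up, 804 down), which moved the median change of all genes from 0.004 to 0.084. No gene that fell was called as risen after centring. A fit of the 6 arrays alone, with fewer degrees of freedom, called 1493 genes. Principal component 1 of the 6 arrays held 45.6% of their variance and placed the DMSO arrays at -21.91 to -18.04 and the MLN4924 arrays at 18.38 to 21.83.

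**Figure D1:**
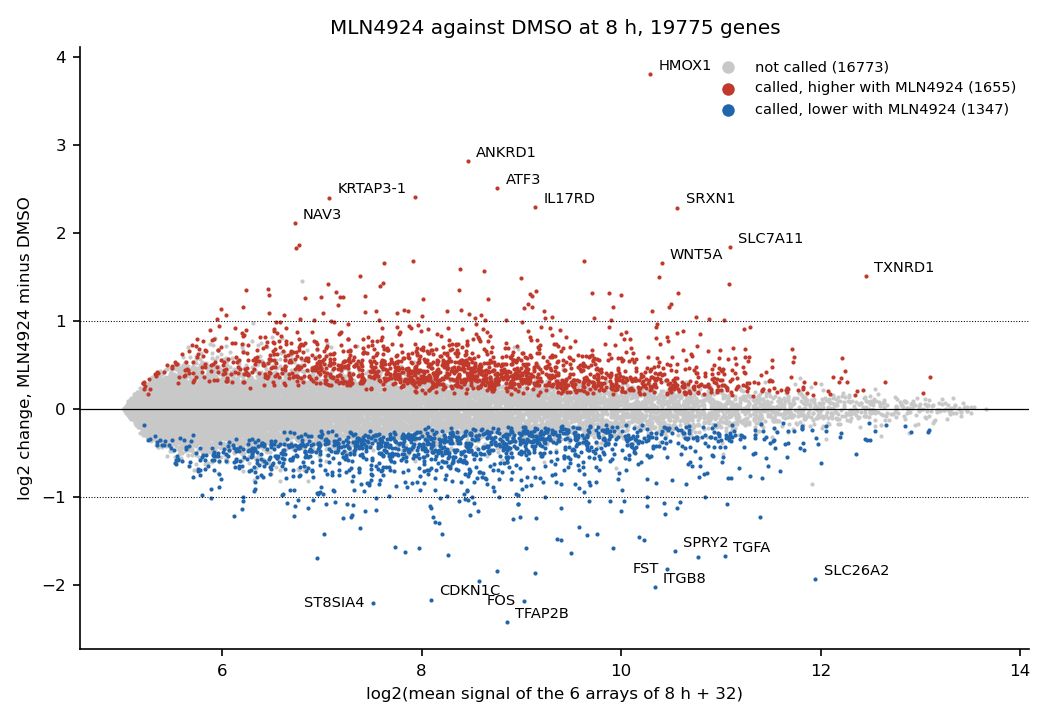
Change with MLN4924 at 8 h (log2, vertical axis) against the mean level of the 6 arrays (log2 of signal + 32, horizontal axis) for 19775 genes, 1 point per gene, with genes called higher in red, called lower in blue and not called in grey. Dotted lines mark a change of 2-fold, and HMOX1 at 3.81 and TFAP2B at -2.41 are the outermost points above and below.

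The largest increases held antioxidant genes beside genes of quite different function. They and the largest decreases were taken only from called genes with no overlap between the groups, so their separation was set by the choice. HMOX1, the haem-degrading oxygenase, rose by 3.81 on the log2 scale. SRXN1, which repairs over-oxidised peroxiredoxins, had signals of 469.8, 495.9 and 478.2 with DMSO and of 2419.8, 2597.3 and 2427.2 with MLN4924. All 3 MLN4924 arrays of SRXN1 lay far above the DMSO arrays, and the change was 2.29 ± 0.07 (SE; limma, adjusted p = 2.24e-16). KRTAP3-1, a keratin-associated protein of the hair shaft, went from 8.9, 11.8 and 9.5, which is below the array median, to 140.2, 238 and 206.5 (2.41 ± 0.19, adjusted p = 1.28e-09). IL17RD, an inhibitor of fibroblast growth factor and MAP kinase signalling also called SEF, stood at 163.5, 147 and 160.1 with DMSO and at 906.3, 759.3 and 1049.7 with MLN4924 (2.30 ± 0.16, adjusted p = 1.31e-10). Its MLN4924 arrays differed among themselves by more than its DMSO arrays did, yet the groups were far apart. WNT5A, a WNT ligand that signals mostly without beta-catenin, had 554.4, 678.2 and 629.9 against 2196.1, 1808.4 and 2085.6 (1.66 ± 0.10, adjusted p = 9.73e-12). NAV3, a microtubule-binding protein, rose by 2.11, KCNE4, a potassium channel subunit, by 1.83, and ESM1, a secreted proteoglycan, by 1.68. The antioxidant-linked OSGIN1 (1.87), SLC7A11 (1.85), TRIM16 (1.69) and the pseudogene NMRAL2P (1.66) completed the 15 largest with ANKRD1 (2.82), ATF3 (2.51) and GDF15 (2.41), the last of which rested on a probe set of a shared type: without such probe sets the change of GDF15 was 0.084 (adjusted p = 0.41).

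The genes with the largest decreases were of varied function, with FOS (-2.18) and CDKN1C (-2.16), described with their groups, among them. TFAP2B, a neural crest transcription factor, fell by 2.41, the most of any gene in the set. ST8SIA4, which builds polysialic acid chains on cell-surface proteins, read 232, 276.6 and 293.4 with DMSO and 32.1, 23.1 and 45.4 with MLN4924 (-2.20 ± 0.15, adjusted p = 1.31e-10), so that it ended at the array median. ITGB8, an integrin subunit that activates latent TGF-beta, read 2087.3, 1869.1 and 2166.5 against 448.5, 437.8 and 553.8 (-2.02 ± 0.19, adjusted p = 2.22e-08). ERBB3, the neuregulin receptor of the neural crest and of melanocytes, read 3031.5, 2262.2 and 2601.7 against 801.6, 818.5 and 766.7 (-1.68 ± 0.08, adjusted p = 6.06e-13). For both genes the lowest DMSO array was more than 2-fold above the highest MLN4924 array. NFATC2, a calcium-regulated transcription factor, fell by 1.94, the sulphate transporter SLC26A2 by 1.93, the neuronal membrane protein SLITRK6 by 1.85, and the activin-binding protein FST by 1.81. SOX2 fell by 1.65 and SOX10 by 1.63. CEMIP, which takes part in hyaluronan breakdown, changed by -1.83, a call that was lost (adjusted p = 0.929) when probe sets of shared type were left out.

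**Figure D2:**
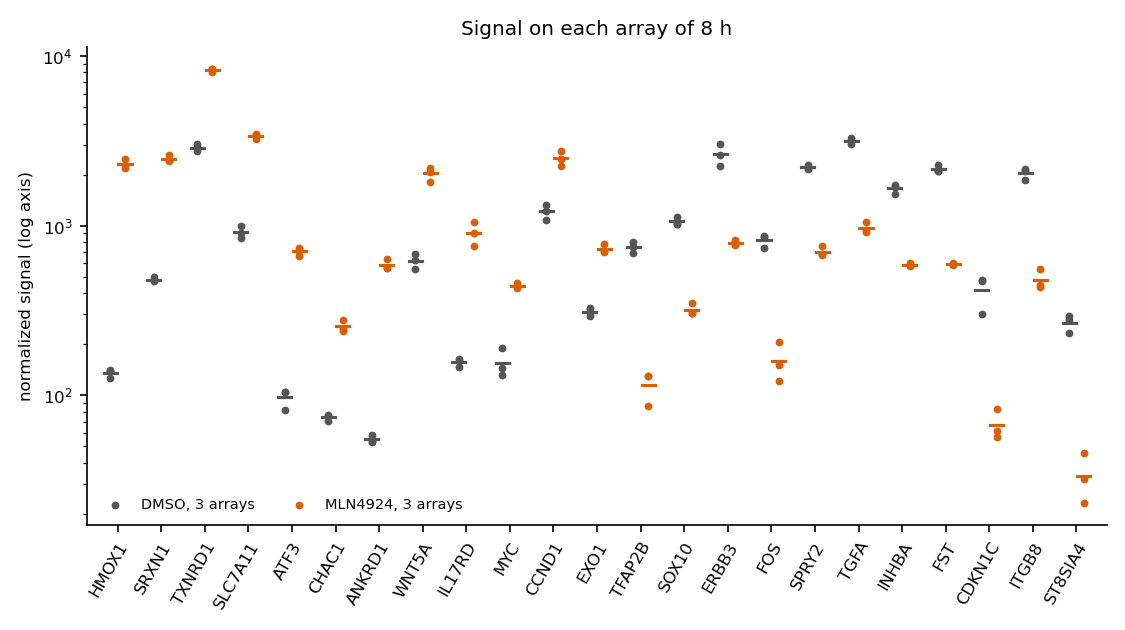
Normalized signal (log axis) of 23 genes named in the text on each of the 3 DMSO arrays (grey) and 3 MLN4924 arrays (orange) of 8 h, with the group mean as a short bar. In each gene the groups are separate, which was largely fixed in advance by choosing genes called on these same arrays. SRXN1 sits at 469.8 to 495.9 with DMSO and at 2419.8 or above with MLN4924, ITGB8 at 1869.1 or above and at 553.8 or below.

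Of 13 measured genes for NEDD8, its enzymes and their helpers, 4 rose and 1 fell (38.5% called, against 15.2% of all genes). In the fit of the 6 arrays 2 rose and none fell. A list of 13 measured housekeeping genes had the same called share, 38.5%, with 3 higher and 2 lower. NEDD8 itself (-0.11, adjusted p = 0.259), NAE1 (0.11, adjusted p = 0.201) and UBA3 (-0.25, adjusted p = 0.306), the latter pair being the drug's target enzyme, did not pass the test in limma. The risen genes of the NEDD8 list were 4 DCUN1D genes, which help load NEDD8 on cullins, with DCUN1D4 (0.54) and DCUN1D2 (0.46) called under every setting. UBE2F, the NEDD8-conjugating enzyme that serves cullin 5, changed by -0.44, a call lost in the fit of the 6 arrays alone (adjusted p = 0.0758). Of 15 cullins, adaptors and exchange factors 3 rose and none fell (7 and 0 with median centring, 2 and 1 without DMSO replicate 2), among them CUL3 (0.32 ± 0.05), the scaffold for BTB receptors, and GLMN (0.52 ± 0.10), which binds the RING protein and blocks the ligase. CUL1 (0.16) and the exchange factor CAND1 (-0.15) did not pass the test. In limma 0 of the 10 measured subunits of the COP9 signalosome, which removes NEDD8 from cullins, were called (1 at an unadjusted p under 0.05, and 3 rose with median centring).

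Among the substrate receptors the directions were mixed. Of 33 BTB receptors 8 rose and 5 fell (15 and 2 with median centring). KEAP1, the receptor that hands NRF2 to CUL3, had 265.1, 246.8 and 193.9 with DMSO and 445.3, 460.7 and 440.6 with MLN4924. The groups were well apart and the change was 0.86 ± 0.11 (adjusted p = 5.6e-06), while the RNA of NRF2 itself, NFE2L2, changed by 0.09 (adjusted p = 0.492). KLHL42 (0.61) and KLHL8 (0.58) rose, and ENC1 (-1.12) and KLHL12 (-0.38) fell. Of 25 F-box receptors 7 rose and 2 fell (2 and 1 in the fit of the 6 arrays), including FBXW7 at 0.47, the receptor for cyclin E and MYC. Of 40 cullin 4 and SOCS-box receptors 5 rose and 7 fell (10 and 3 with median centring). DTL, the receptor by which the cullin 4 ligase degrades CDT1 and p21 in S phase, had 906.7, 962.6 and 871 with DMSO and 1687, 1642.9 and 1558 with MLN4924 (0.81 ± 0.08, adjusted p = 3.37e-08). SOCS2, a receptor that restrains cytokine and growth hormone signalling, showed the opposite: it fell from 196.5, 213.4 and 212.8 to 59.7, 58.5 and 67.6 (-1.35 ± 0.07, adjusted p = 2.03e-12). DCAF1, a further cullin 4 receptor, rose by 0.47, and KLHDC2, which reads protein ends, fell by 0.41.

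**Figure D3:**
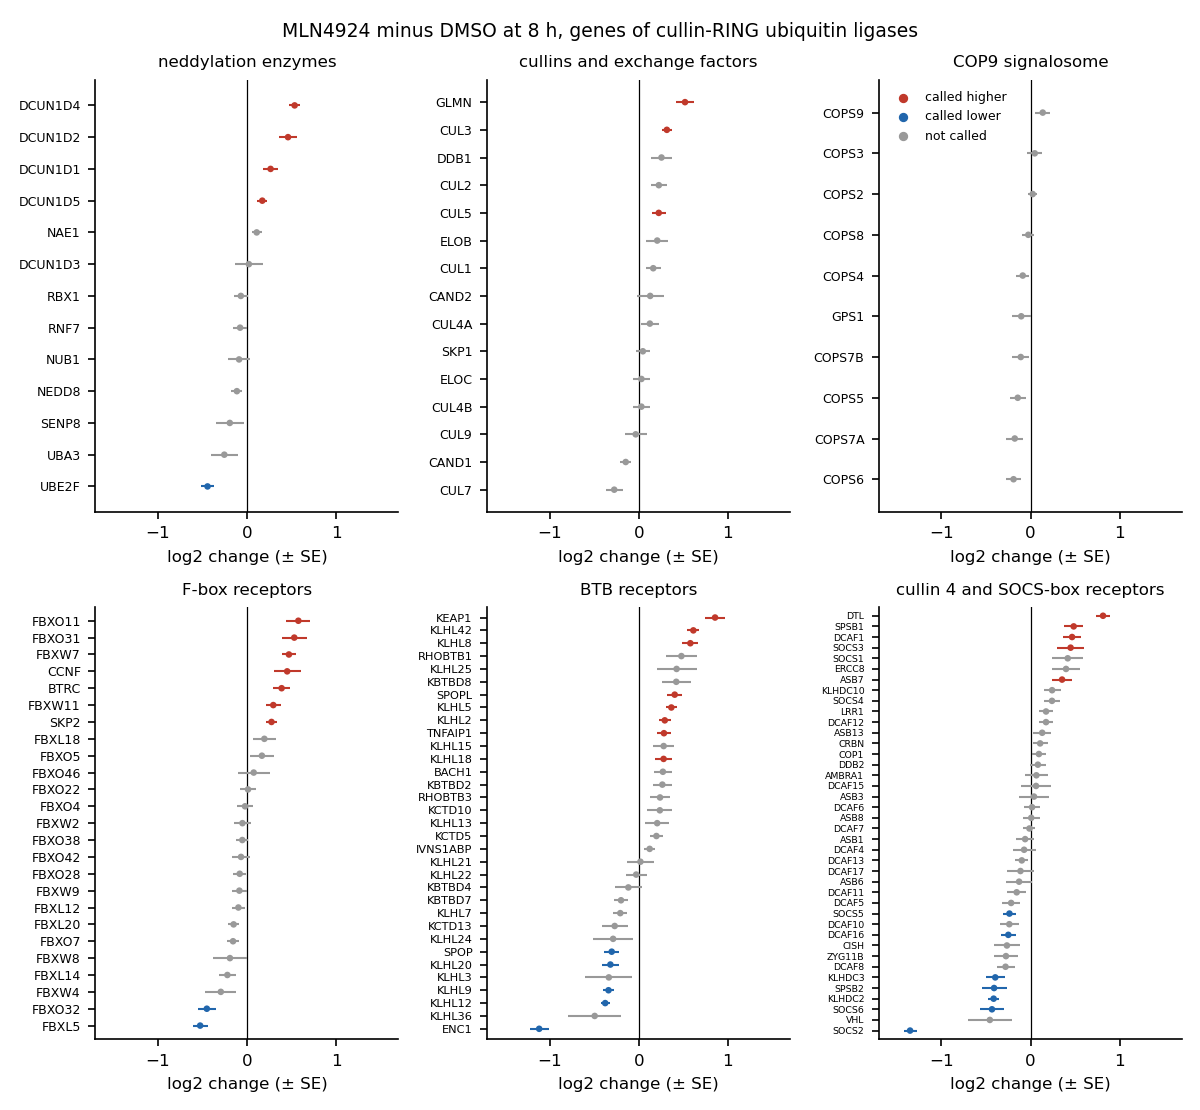
Change at 8 h (log2, MLN4924 minus DMSO, point) with its SE (bar) for the measured genes of 6 lists of the NEDD8 and cullin-RING ligase system, sorted within each list. KEAP1 (0.86) and ENC1 (-1.12), and DTL (0.81) and SOCS2 (-1.35), are the ends of the BTB list and of the cullin 4 and SOCS-box list, and the COP9 signalosome holds no called gene.

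Targets of NRF2, the transcription factor of the antioxidant response, formed the list with the highest share of risen members. Of 52 measured genes 32 rose and none fell, with a list median of 0.38 against 0.004 over all genes. The list was drawn up from general knowledge, but with earlier results of these arrays known, so its count is no independent evidence. TXNRD1, thioredoxin reductase, had 2882.9, 3018.9 and 2754.4 with DMSO and 8416.3, 8081.3 and 8333.3 with MLN4924. It was among the brightest genes that changed (1.51 ± 0.06, adjusted p = 2.47e-14). Of the genes of glutathione synthesis and recycling, GCLM (1.42) and GCLC (0.73), the subunits of the rate-limiting ligase, and GSR (1.20), which reduces oxidised glutathione, rose. AKR1B10 (1.27) and AKR1C3 (0.83), aldo-keto reductases, also rose, as did the exporters ABCC2 (0.93) and ABCC4 (0.77), the NADPH source ME1 (0.54) and the small MAF partners MAFF (0.87) and MAFG (0.64). NQO1, a quinone reductase, rose by 0.31 and FTL, the ferritin light chain, by 0.37. TXN (0.10, adjusted p = 0.564) did not pass the test.

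Since 32 of these genes rose, promoters of the list are shown for the factor's known element. The core of the antioxidant response element was searched as TGACNNNGC on both strands of RefSeq promoter windows of GRCh38.p14, from 250 bases before to 50 after a start site, and a gene with several start sites was counted if any of its windows held a match. It shares its first 4 letters with the cyclic AMP element TGACGTCA, so some matches can be part of both. Of the 27 called NRF2 targets with a window here 9 held a match, and of all 41 measured with a window 17 did, so that the match was no more frequent among the called members than over the list. It stood in 18.4% of all tested genes, 19.5% of risen and 21.3% of fallen genes, and 13.3% of all windows. Those with the largest changes were TXNRD1 (chr12:104215529-104215828, plus strand) and GCLM (chr1:93909381-93909680, minus strand), printed 5′ to 3′ with each match in capitals.
TXNRD1: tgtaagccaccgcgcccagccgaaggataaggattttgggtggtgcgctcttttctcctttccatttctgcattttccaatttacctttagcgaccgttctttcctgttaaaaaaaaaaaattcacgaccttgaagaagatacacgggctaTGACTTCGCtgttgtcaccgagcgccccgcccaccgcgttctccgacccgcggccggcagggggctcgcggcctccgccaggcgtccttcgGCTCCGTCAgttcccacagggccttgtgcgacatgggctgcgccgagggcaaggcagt
GCLM: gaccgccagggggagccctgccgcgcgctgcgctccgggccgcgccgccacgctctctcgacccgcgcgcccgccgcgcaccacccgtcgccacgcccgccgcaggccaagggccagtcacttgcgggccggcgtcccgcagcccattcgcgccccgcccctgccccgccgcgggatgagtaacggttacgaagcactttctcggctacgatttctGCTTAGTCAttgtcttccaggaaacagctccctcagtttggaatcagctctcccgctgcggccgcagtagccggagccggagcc
The TXNRD1 window, at the upstream of its start sites in the table, holds a match on each strand, the second of them across the start site, and GCLM holds 1 close before it. A match of letters is a description and not a measured site, and most called targets had none in this window.

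Genes of amino acid supply and use were covered by 4 lists, each with risen and no fallen members. Of 34 measured targets of ATF4, the transcription factor of the amino acid and stress response, 20 rose and none fell (median 0.40). CHAC1, which degrades glutathione, read 75.4, 76.1 and 70.7 with DMSO and 245.9, 279.2 and 238.4 with MLN4924, with no overlap and little spread in either group (1.43 ± 0.08, adjusted p = 1.04e-11). CTH, the last enzyme of cysteine synthesis, rose by 1.29, the transcriptional repressor JDP2 by 1.27, TRIB3, a feedback inhibitor of ATF4, by 1.16, and VLDLR and CEBPG by 0.87 and 0.86. ATF4 itself changed by 0.24, a call lost in the fit of the 6 arrays (adjusted p = 0.117), and DDIT3, the stress factor CHOP, did not pass the test (0.44, adjusted p = 0.115). Of 20 amino acid transporters 10 rose and none fell (6 in the fit of the 6 arrays). Beside SLC7A11, the cystine importer, these included both subunits of the leucine transporter, SLC7A5 (0.69) and SLC3A2 (0.56), and the glutamine carrier SLC38A1 (0.42). Of 17 cytosolic tRNA synthetases 7 rose and none fell (3 in the fit of the 6 arrays), led by GARS1 (0.48) and YARS1 (0.47). Of 16 genes of serine and folate metabolism 8 rose and none fell (4 in that fit), among them the mitochondrial MTHFD2 (0.58) and SHMT2 (0.46).

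The C/EBP-ATF response element was searched as TGATGNAA on both strands in the same windows. Of 16 called ATF4 targets with a window 6 held it, and of all 28 measured with a window 7 did, against 3.61% of all tested genes. ATF3 (chr1:212565157-212565456, plus strand) and CHAC1 (chr15:40953221-40953520, plus strand) are shown as those with the largest changes, with the match in capitals. The ATF3 window is that of the upstream of its start sites in the table.
ATF3: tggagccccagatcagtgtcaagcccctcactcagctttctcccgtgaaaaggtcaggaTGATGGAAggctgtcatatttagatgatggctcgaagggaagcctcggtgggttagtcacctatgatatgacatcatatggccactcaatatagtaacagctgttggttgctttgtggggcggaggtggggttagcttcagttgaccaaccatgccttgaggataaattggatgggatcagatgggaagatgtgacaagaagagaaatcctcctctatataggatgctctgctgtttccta
CHAC1: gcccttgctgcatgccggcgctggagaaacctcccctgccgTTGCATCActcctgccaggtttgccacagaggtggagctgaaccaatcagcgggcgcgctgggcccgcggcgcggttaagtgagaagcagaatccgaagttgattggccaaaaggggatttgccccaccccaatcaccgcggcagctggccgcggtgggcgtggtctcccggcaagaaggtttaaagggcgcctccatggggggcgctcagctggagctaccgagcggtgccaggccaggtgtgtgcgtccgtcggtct
In both windows the letters lie near the upstream end, and no more than their presence was examined.

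Of 50 measured p53 targets 19 rose and 4 fell (median 0.20). The risen genes cover cell cycle arrest, death and feedback. GADD45A (1.51), CDKN1A (1.34) and the p53 ligase MDM2 (1.32) were the most changed of those called under every setting. The death genes PMAIP1, which encodes NOXA, and FAS rose by 1.20 and 1.04. PPM1D, a phosphatase that switches p53 off, rose by 0.93, the kinase PLK2 by 0.74, and SESN1 and DRAM1 by 0.68 and 0.60. Against these, CCNG2, an atypical cyclin, fell by 0.72, and the lowest change in the list was -1.67. Other well-known targets did not pass the test, including BAX (0.19), CCNG1 (-0.03), DDB2 (0.08) and ZMAT3 (0.02). Of the 7 CDK inhibitors measured, CDKN1A alone rose and 3 fell. CDKN1C, which encodes p57, read 302, 469.1 and 476.5 with DMSO and 82.8, 56.8 and 61.3 with MLN4924 (-2.16 ± 0.19, adjusted p = 1.16e-08). One DMSO array was lower than the others but still far above the MLN4924 arrays. CDKN1B, which encodes p27, a known substrate of the SKP2 ligase, fell by 0.40.

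Of 57 measured genes of the G1/S transition and of DNA replication 24 rose, none fell and 33 did not pass the test (median 0.18); 16 rose in the fit of the 6 arrays and 34 with median centring. The cyclins CCND1 (1.03), CCNE1 (0.92) and CCNE2 (0.48), the phosphatase CDC25A (0.88), which activates their kinase, and the late E2F factor E2F7 (0.80) rose. So did POLD3 (0.59), FEN1 (0.59) and POLA1 (0.48) of the replication machinery and GMNN (0.55), which encodes geminin, the inhibitor of CDT1. CDT1 RNA did not pass the test (0.18, adjusted p = 0.693), nor did MCM2 (0.16), PCNA (0.12) and E2F1 (0.42, adjusted p = 0.193). Of 39 DNA repair and checkpoint genes 13 rose and none fell (6 in the fit of the 6 arrays). EXO1, a nuclease of mismatch and break repair, had 294.9, 325.8 and 307.3 with DMSO and 700.8, 776.4 and 712.2 with MLN4924 (1.16 ± 0.08, adjusted p = 1.23e-10). The homologous recombination genes RAD54L (0.83), BRIP1 (0.78) and BARD1 (0.60) also rose. Mitotic genes did not follow in number: of 51 measured, 4 rose and 2 fell, and MKI67 (0.08) and TOP2A (0.05) did not pass the test. With median centring 12 of the 51 rose and none fell. Of 28 histone genes 2 fell, H2AC6 by 0.93 and, with a call lost on median centring (adjusted p = 0.0508), H2BC12 at -0.53.

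The E2F site was searched as TTTGGCGC or TTTCCCGC on both strands. Of 21 called G1/S genes with a window 13 held a form of it, and of all 48 measured with a window 25 did, against 3.67% of all tested genes. CDC25A (chr3:48188368-48188667, minus strand) and GMNN (chr6:24775163-24775462, plus strand) are printed as the called genes with the largest changes among those with the TTTGGCGC form, with the match in capitals.
CDC25A: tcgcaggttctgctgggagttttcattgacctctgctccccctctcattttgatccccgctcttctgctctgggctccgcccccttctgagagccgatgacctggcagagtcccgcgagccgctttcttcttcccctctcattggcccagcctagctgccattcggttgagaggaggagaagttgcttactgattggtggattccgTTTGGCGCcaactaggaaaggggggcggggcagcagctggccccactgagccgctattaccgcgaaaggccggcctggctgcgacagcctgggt
GMNN: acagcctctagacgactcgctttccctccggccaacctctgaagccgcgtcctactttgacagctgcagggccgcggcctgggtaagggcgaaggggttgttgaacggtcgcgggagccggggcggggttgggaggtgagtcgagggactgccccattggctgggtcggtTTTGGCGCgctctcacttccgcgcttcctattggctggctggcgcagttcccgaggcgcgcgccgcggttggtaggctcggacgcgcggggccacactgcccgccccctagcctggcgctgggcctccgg
In both promoters the match lies within 80 bases before the start.

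MYC, the growth-promoting transcription factor, read 189.7, 131.6 and 145.5 with DMSO and 459.9, 442.8 and 427 with MLN4924. Its MLN4924 arrays were close together and clear of the DMSO arrays (1.35 ± 0.09, adjusted p = 1.02e-10). Of 14 genes of the MYC network 3 rose, with MXI1, a MYC antagonist, at 0.58. Of 40 measured genes of ribosome biogenesis 20 rose and none fell (median 0.26), but 7 in the fit of the 6 arrays, 14 to 16 with any single array of 8 h left out (15 without DMSO replicate 2, which had the highest median signal) and 28 with median centring. RRP1B (0.87), WDR43 (0.72), BYSL (0.56), NOP14 (0.53) and DDX21 (0.36), all factors of ribosomal RNA processing or subunit assembly, rose, as did POLR3G (0.43), a subunit of RNA polymerase III. NCL, nucleolin, did not pass the test (0.00, adjusted p = 0.997). Of 32 ribosomal protein genes 0 were called in limma, 1 at an unadjusted p under 0.05 (median 0.001).

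The E-box CACGTG, a palindrome to which MYC and related factors bind, stood in 10.9% of all tested genes, 14.7% of risen and 12.1% of fallen genes. In ribosome biogenesis the windows of 12 of 16 called genes and of 16 of all 34 measured with a window held it. WDR43 (chr2:28894417-28894716, plus strand) and BYSL (chr6:41921249-41921548, plus strand) are shown as those with the largest changes, with the E-box in capitals.
WDR43: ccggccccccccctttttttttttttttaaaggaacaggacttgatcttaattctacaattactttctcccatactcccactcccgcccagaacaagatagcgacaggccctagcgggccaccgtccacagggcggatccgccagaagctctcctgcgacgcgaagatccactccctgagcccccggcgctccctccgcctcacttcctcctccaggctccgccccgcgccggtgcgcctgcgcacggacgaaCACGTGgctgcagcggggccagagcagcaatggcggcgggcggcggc
BYSL: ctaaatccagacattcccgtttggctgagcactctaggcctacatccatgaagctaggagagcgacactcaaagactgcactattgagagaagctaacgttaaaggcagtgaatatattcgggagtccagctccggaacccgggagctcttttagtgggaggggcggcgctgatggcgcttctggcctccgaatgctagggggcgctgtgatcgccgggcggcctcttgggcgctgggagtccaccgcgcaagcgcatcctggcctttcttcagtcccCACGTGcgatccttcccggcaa
In both the E-box lies within the 50 bases after the start site. In the MYC network list 0 of 2 called genes with a window and 3 of all 13 measured with a window held an E-box.

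Immediate early genes, which respond within minutes to growth factor signals, split by direction: of 26 measured 9 rose and 8 fell (6 and 8 in the fit of the 6 arrays). FOS had 860.3, 869.6 and 734.2 with DMSO and 122, 204.8 and 150.9 with MLN4924 (-2.18 ± 0.20, adjusted p = 1.92e-08). The groups did not overlap at 8 h, though the 15 DMSO arrays of all times spanned a wider range. FOSB and the nuclear receptor NR4A2 both fell by 1.57 and EGR3 by 1.15. In the other direction, ATF3 and EGR1 (1.32) rose, with FOSL2 (1.11), a late FOS relative, and IER5 (0.66). Of 14 KLF factors 6 fell and 1 rose, including KLF6 (-1.07), KLF4 (-1.04), KLF9 (-0.82) and KLF12 (-0.49).

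Known outputs of MAP kinase signalling also split: of 25 measured 7 rose and 9 fell. SPRY2, a feedback inhibitor of receptor tyrosine kinases, read 2266.6, 2183.1 and 2170.1 against 761.6, 678.7 and 671.9 (-1.61 ± 0.07, adjusted p = 8.28e-14). The phosphatase DUSP10 (-1.28), PHLDA1 (-1.23), the ETS factors ETV1 (-1.16) and ETV4 (-0.50) and the Sprouty relative SPRED1 (-0.45) fell with it. DUSP6 (-0.15, adjusted p = 0.52), DUSP4 (0.05) and ETV5 (-0.02), also outputs of this pathway, did not pass the test, and IL17RD, CCND1, EPHA2 (0.60) and DUSP14 (0.45) rose. Of 23 growth factor ligands 6 rose and 1 fell. The one that fell was TGFA, a ligand of the EGF receptor, at 3036.9, 3292.9 and 3167.7 with DMSO and 947.6, 920 and 1056.3 with MLN4924 (-1.67 ± 0.10, adjusted p = 7.3e-12). HBEGF (0.92), a ligand of the same receptor, PDGFA (0.64) and KITLG (0.68) rose, so ligands of a single receptor went opposite ways.

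Of 30 targets of the coactivator YAP and the transcription factor SRF, which respond to cell shape and tension, 8 rose and 1 fell (15 and 0 with median centring). ANKRD1 led them, followed by CCN2 (1.12), CCN1 (0.97), AMOTL2 (0.78), LATS2 (0.74), FHL2 (0.64) and AJUBA (0.60). Of 27 integrins, laminins and their partners 3 rose and 7 fell (4 and 4 with median centring, 1 and 3 in the fit of the 6 arrays, 1 and 6 without DMSO replicate 2), with ITGB3 (-0.59) and LAMA4 (-0.46) lower beside ITGB8. Of 45 matrix genes 4 rose and 8 fell (7 and 2 with median centring), with LOXL4, a collagen-crosslinking oxidase, at -1.43, the membrane protease MMP16 at -0.90 and COL13A1 at 0.69. Of 24 tubulins and microtubule genes 2 rose and 2 fell (6 and 2 with median centring). This called share, 16.7%, was near the 15.2% of all genes. TUBA1A fell by 1.19 and MAP1B rose by 1.04.

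Of 31 measured genes of the melanocyte lineage 4 rose and 7 fell, 5 and 5 with median centring and 2 and 5 in the fit of the 6 arrays. The fallen ones called under every setting were TFAP2B, ERBB3, SOX10 and S100B (-1.23), while EDNRB, the endothelin receptor, rose by 0.38. MITF, the master factor of the lineage, did not pass the test (-0.19, adjusted p = 0.306), and neither did TFAP2A (0.18), the close relative of TFAP2B. Markers of other cell types were checked beside this. The summed signal of 11 melanoma and melanocyte markers was 4641 to 4989 on the DMSO arrays and 3149 to 3629 on the MLN4924 arrays. That of 10 fibroblast markers was 438 to 511 and 370 to 425, with 1 called lower, that of 8 blood markers was 620 to 643 and 513 to 621, with 1 called lower, and that of 8 endothelial markers was 159 to 184 and 140 to 187, with none called in limma and 1 at an unadjusted p under 0.05. For 15 epithelial and keratinocyte markers it was 4923 to 5742 and 5700 to 6445, with 2 called higher and 1 lower, and KRT18, which rose by 0.39, made up the greatest share. EPCAM and CDH1 did not exceed 21.1 on any of the 6 arrays.

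Genes of the TGF-beta and activin pathway changed in both directions, more of them downward: of 39 measured 6 rose and 12 fell (7 and 6 with median centring, 5 and 5 in the fit of the 6 arrays). INHBA, the activin A subunit, read 1536.9, 1699.4 and 1743.7 with DMSO and 576.3, 601.6 and 589.7 with MLN4924 (-1.44 ± 0.09, adjusted p = 2.55e-11). FST, which traps activin, fell too, so ligand and antagonist were lower together. The target genes ID1 (-1.05), ID2 (-0.81) and PMEPA1 (-0.97) fell. INHBB (0.80), the other activin subunit, which was dim, and FSTL1 (1.13) rose. Of 34 WNT pathway genes 6 rose and 2 fell. Beside WNT5A, the feedback genes AXIN2 (1.09) and ZNRF3 (0.95) rose, and the antagonist DKK1 (-0.63) and the nuclear factor TCF7L2 (-0.76) fell. Of 22 genes of the IGF and insulin pathway 6 rose and 5 fell (6 and 3 with median centring), with IGFBP4 (1.31), IRS1 (0.97) and FOXO3 (0.41) higher and IGFBP5 (-0.75) and IGFBP7 (-0.53) lower. In the NOTCH pathway 2 of 18 rose and 3 fell, among them the coactivator MAML2 (-0.79).

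Genes of the NF-kB pathway and secreted cytokines showed no common direction, whereas the called interferon-response genes all fell. Of 28 NF-kB pathway genes 6 rose and 3 fell (2 and 3 in the fit of the 6 arrays): the superoxide dismutase SOD2 (1.10) and LIF (0.68) rose, and NFKBIZ (-0.97) and NFKB1 (-0.61) fell. NFKBIA, the inhibitor that cullin ligases destroy, did not pass the test (0.56, adjusted p = 0.118). Of 28 secreted cytokines 6 rose and 4 fell (5 and 2 in that fit), with SPP1, osteopontin, at 1.26, IL12A at 0.84, TNFSF9 at 0.67 and IL24 at -1.23. Of 37 interferon-response genes none rose and 7 fell (4 fell in that fit, and 1 rose and 6 fell with median centring). IFIT1, an interferon-induced RNA-binding protein, fell by 1.00 from a level of 65.6 ± 10.3 (SD, n = 3) to 18 ± 14.2 (adjusted p = 0.00223), and IFI35 (-0.69) and ISG20 (-0.59) also fell. These were dim to moderate genes, and no other called member kept its call under every setting.

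Of 32 targets of the hypoxia factor HIF 11 rose and 1 fell (7 and 1 in the fit of the 6 arrays). ADM (1.12), PDK1 (1.02), the glucose transporter SLC2A3 (1.01), NDRG1 (0.82) and BNIP3 (0.57) rose, while 2 of 19 glycolysis enzymes and transporters rose (12 with median centring). Of 32 autophagy and lysosome genes 8 rose and 5 fell (11 and 2 with median centring). The lysosomal enzymes GLA (1.30), CTSB (1.04) and CTSL (0.89), the lysosomal gene activator TFE3 (0.78), the autophagy protein GABARAPL1 (0.74) and the cargo receptor SQSTM1 (0.42) rose, and WIPI1 fell by 0.60. Of 25 genes of the unfolded protein response none rose and 7 fell (median -0.24), with HSP90B1 at -0.55 and DNAJB11 at -0.42. These calls depended on the scaling: with median centring 2 rose and 1 fell, and the adjusted p was 0.103 for HSP90B1 and 0.0643 for DNAJB11. Of 21 heat shock genes 4 rose and 2 fell (7 and 0 with median centring), with DNAJB4 at 1.15 and DNAJB1 at 0.42. Of 31 proteasome subunits 1 rose and 1 fell (9 and 0 with median centring). Of 14 iron-handling genes 4 rose and 1 fell, among them TFRC, the transferrin receptor, at 0.43.

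**Figure D4:**
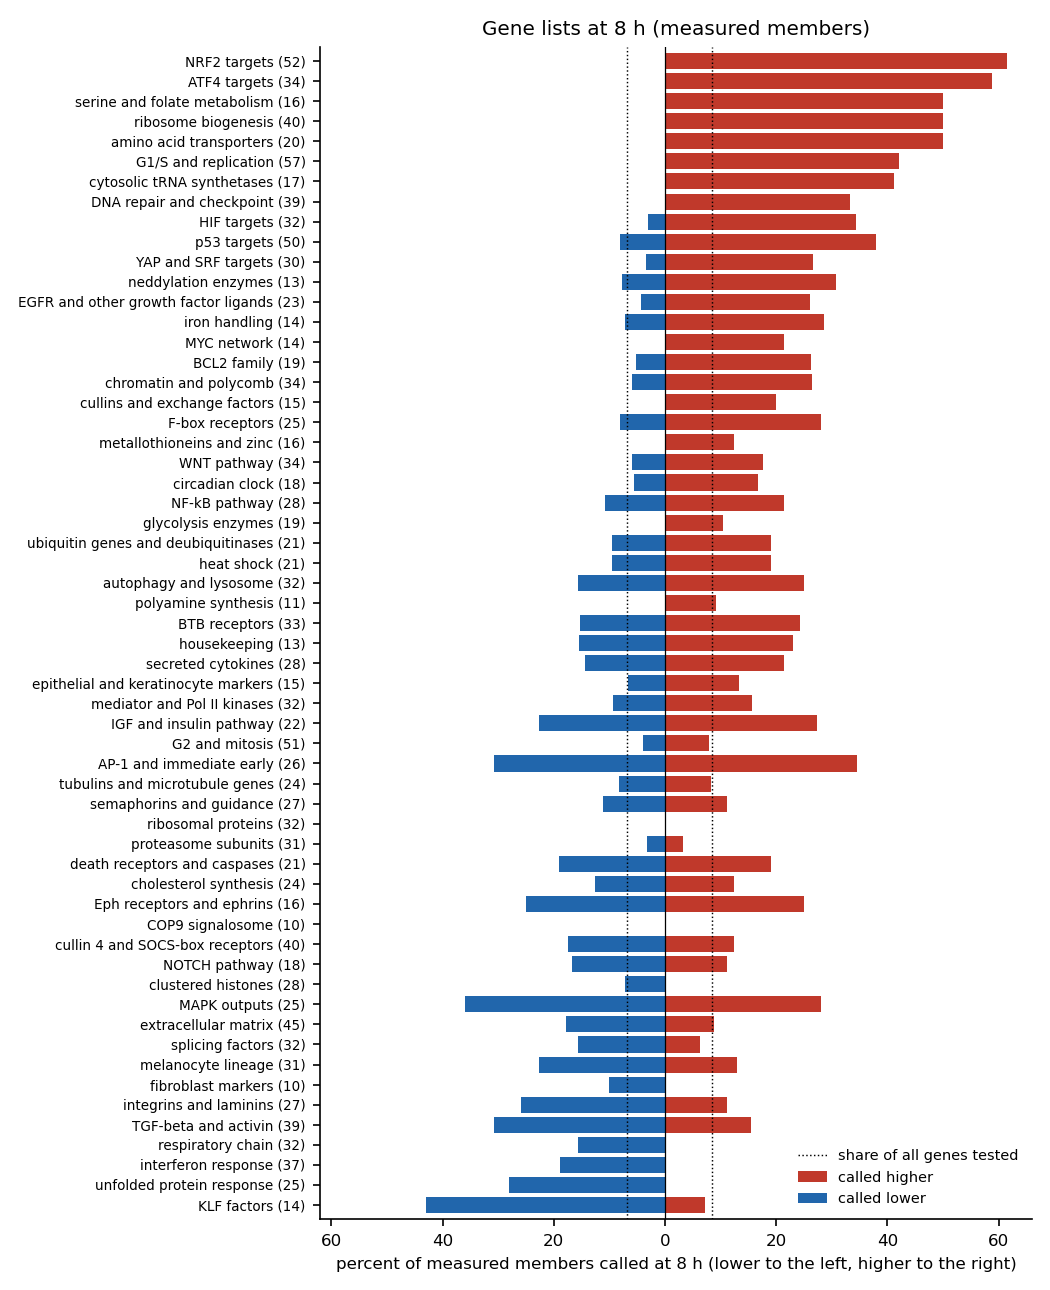
Share of the measured members of gene lists with at least 10 measured genes that was called at 8 h, higher with MLN4924 to the right in red and lower to the left in blue (percent), sorted by the difference. The dotted lines give the share of all 19775 genes, 8.37% higher and 6.81% lower. NRF2 and ATF4 targets stand at the top and KLF factors at the bottom, and the COP9 signalosome and the ribosomal proteins have no bar.

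The 8 h effect was set against those of the neighbouring times by testing the difference of effects in the same model. The effect at 8 h differed from that at 4 h for 310 genes (1.57%), 153 of them more positive at 8 h and 157 more negative. This count was less stable than the others: it was 188 without MLN4924 replicate 1, 204 without DMSO replicate 1, 192 without probe sets of shared type and 117 when only the 12 arrays of 4 and 8 h were fitted. The effect at 24 h differed from that at 8 h for 3849 genes (19.5%), 1625 more positive and 2224 more negative. Both differences use the 6 arrays of 8 h. Several of the genes described above were already changed at 4 h, and the difference from 8 h did not pass the test: IL17RD (2.20 at 4 h), SLC7A11 (1.84), SPRY2 (-1.39), INHBA (-1.48), FOS (-2.14) and MYC (1.57). Others differed more at 8 h, with ITGB8 at -0.84 and then -2.02 (adjusted p of the difference = 0.0198), ERBB3 at -0.67 and then -1.68 (adjusted p = 2.07e-05), CDKN1C at -0.50 and then -2.16 (adjusted p = 0.00121) and EXO1 at 0.59 and then 1.16 (adjusted p = 0.00725). Between 8 and 24 h, IL17RD went from 2.30 to -0.46 (adjusted p = 1.89e-09), WNT5A from 1.66 to -0.32 (adjusted p = 1.49e-10) and KRTAP3-1 from 2.41 to 0.11 (adjusted p = 5.39e-07), whereas SRXN1 stayed near its 8 h change (2.25, adjusted p of the difference = 0.85).

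**Figure D5:**
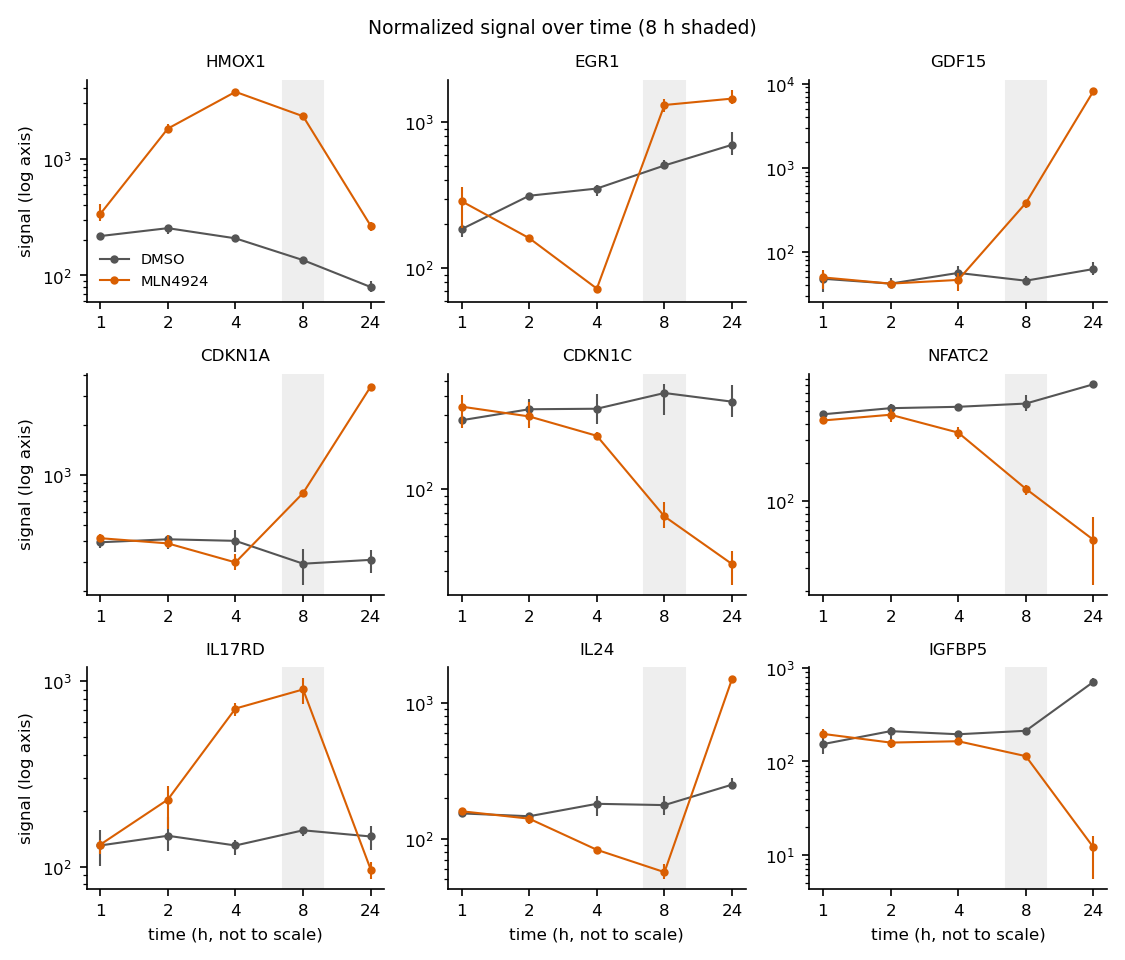
Normalized signal (log axis) of 9 genes in cells given DMSO (grey) or MLN4924 (orange) at 1, 2, 4, 8 and 24 h, as the mean of 3 arrays with a bar from the lowest to the highest, and 8 h shaded. EGR1 lay below DMSO at 4 h and above it at 8 h, IL24 lay below DMSO at 8 h and above it at 24 h, and IL17RD was above DMSO at 4 and 8 h and below it at 24 h (85.6 to 105.6 against 123.5 to 165.9).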

How the data were processed

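Biotin-labelled cRNA from A375 cells was read on 30 HG-U133 Plus 2.0 arrays, 3 per treatment and time. The deposited table gives 1 intensity per probe set and array, a linear signal that the authors made with Affymetrix Expression Console, per the submitters' processing notes, with no version or setting given in the sources used here. All arrays shared a mean of 150.02 once 2% of values were trimmed from either end. Intensities were quantile-normalized over 30 arrays and transformed as log2(signal + 32). Of 54675 probe sets, 41097 have 1 gene symbol, 1801 several and 11777 none. Each gene is represented by its brightest single-symbol probe set over all arrays, control probe sets were left out, and symbols were updated through gene identifiers (41037 probe sets matched RefSeq). A probe set of shared type is one whose name marks it as able to bind transcripts of more than 1 gene or transcript (_x_at or _s_at).

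limma 3.58.1 in R 4.3.3 was fitted with 1 mean for each of 10 groups (20 residual degrees of freedom). The contrasts were MLN4924 minus DMSO at 8 h, and its differences from 4 h and 24 h, two-sided, with Benjamini-Hochberg adjustment over 19775 genes. The fitting step was checked on simulated data that carried known changes. Array quality used exact permutation tests over 6 arrays. The 16 alternatives covered scaling, the added constant (1 or 16), dim genes, the choice of probe set, the arrays fitted, a replicate block, the prior, and each array of 8 h left out. Same-numbered MLN4924 and DMSO arrays did not deviate together (correlations -0.106 to 0.027), so numbers were not used as pairs. No array duplicated another (highest correlation 0.98979). The number of arrays limits the precision.

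The comparison, the 63 gene lists and the rule for named genes were chosen with earlier results of these data known. The rule took, of called genes with no overlap between arrays and a higher group above the median signal, 15 with the largest increase and 15 with the largest decrease, up to 8 called members per list (those called under every alternative they were measured in first), anchor genes called or not, and the largest differences between times. Some further called list members, and genes that did not pass the test and are not anchors, were named after their values were seen. List members without a probe set kept here were not analysed here. The result of 1 list is not reported here.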

Additional observations from a re-analysis of the deposited data

Results flagged for a closer look

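Several genes had an effect of MLN4924 at 8 h that differed from the effect at a neighbouring time, by a test of the difference itself (limma, adjusted p over all genes). Compared with 4 h, the log2 effect at 8 h was higher by 3.20 for EGR1, 2.59 for GDF15 and 1.73 for CDKN1A, and the difference was -1.66 for CDKN1C, -1.50 for CEMIP and -1.32 for NFATC2. EGR1 stood at -1.87 at 4 h and at 1.32 at 8 h, so its direction differed between the times. In all, 310 genes differed in this way between 4 and 8 h.

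Between 8 and 24 h, 3849 genes differed. The effect at 24 h was higher than that at 8 h by 4.03 for GDF15, 3.68 for IL24 and 2.91 for PLCXD2, and the difference was -3.63 for SPRY4-IT1, -3.47 for SERPINA3 and -3.34 for IGFBP5. IL24 was lower with MLN4924 at 8 h (-1.23) and higher at 24 h (2.45). SPRY4-IT1 had not passed the test at 8 h (0.72, adjusted p = 0.0586).

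Probe sets with no gene symbol were not part of the comparison of genes. When they were added to the fit, a step chosen after seeing the data, 589 of 11721 were called at 8 h (5.03%), 246 higher and 343 lower with MLN4924, and 35 of them changed by at least 2-fold. The transcripts they measure were not named here.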

How the results depend on the processing

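Of 205 called genes named in the text, 155 were measured under all 16 alternatives and 149 of them were called under each; the other 50 were measured under 15, and 48 of these were called under each. Over all called genes the share was far lower: of 2408 measured under all 16, 731 (30.4%) were called under each. The total of 3002 called genes became 1493 (834 higher, 659 lower) when the 6 arrays of 8 h were fitted alone, and lay at 2429 to 2610 with single arrays of 8 h left out. Median centring gave 2796 higher and 804 lower, and of the 3002 called genes 2434 were called in the same direction. Leaving out single arrays gave 1323 to 1426 higher, 1079 to 1184 lower and 159 to 180 changed at least 2-fold. That last count was 402 with 1 added before log2, which widens the changes of dim genes, and 90 with all probe sets of a gene averaged. For the difference from 4 h the count of 310 became 117 with the 12 arrays compared, 192 without probe sets of shared type and 188 to 285 with single arrays left out (204 without DMSO replicate 1, 188 without MLN4924 replicate 1). The difference from 24 h kept 3474 to 3699 calls when single arrays were left out. Without probe sets of shared type the GDF15 difference from 4 h was -0.022. With the replicate number as a block, 2609 genes were called at 8 h and 148 for the difference from 4 h. The cause of these shifts was not tested. Genes near the median signal of 36.58 have little room to be measured as lower.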

Other observations

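Some lists of nuclear and signalling genes outside the pathways above are given here beside the 15.2% of all genes that were called. Of the 13 measured housekeeping genes 38.5% were called. The called share was 32.4% for chromatin and polycomb genes and 25% for mediator and polymerase II kinase genes. It was 22.2% for clock genes and 21.9% for splicing factors. Of 34 chromatin and polycomb genes 9 rose and 2 fell (4 and 0 in the fit of the 6 arrays), with the deacetylase HDAC4 at 0.74 called under every setting. Of 32 splicing factors 2 rose and 5 fell (12 and 1 with median centring), the splicing kinase SRPK1 at 0.60 and SRSF5 at -0.56. Of 32 mediator and polymerase II kinase genes 5 rose and 3 fell (1 and 1 in the fit of the 6 arrays, 8 and 1 with median centring), with CDK8 at 0.35 and ELL2, an elongation factor, at -0.63. In the circadian clock 3 of 18 rose and 1 fell (1 and 2 in the fit of the 6 arrays), with the repressor CRY1 at 0.85 and NPAS2 at -0.60. CRY1 protein is itself a substrate of F-box ligases, as background.

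Of 21 ubiquitin genes and deubiquitinases 4 rose and 2 fell (8 and 1 with median centring), among them USP36 (0.63), USP7 (0.55), which acts on MDM2 and p53, and USP12 (0.51). Among Eph receptors and ephrins 4 of 16 rose and 4 fell (4 and 2 with median centring), with EPHB4 at 0.72 and EPHA7 at 0.58. The changes in this list ran from -1.58 to 0.72, with a median of -0.175. Of 16 metallothionein and zinc genes 2 rose and none fell (12.5% called, against 15.2% of all genes). The zinc importers SLC39A14 (0.64) and SLC39A10 (0.45) rose. In the respiratory chain none of 32 rose and 5 fell (15.6% called, against 15.2% of all genes), and with median centring 2 rose and none fell. In a list of cholesterol and other lipid synthesis genes 3 of 24 rose and 3 fell. ACACA, which serves fatty acid synthesis, was at 0.50 and HSD17B7 at -0.44.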
